A study of Schizosaccharomyces pombe with 2 samples.

Results

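Splicing and exonic read counts were described for 46 nuclear genes of the mitochondrial ribosome, respiration and protein import in wild-type fission yeast, Schizosaccharomyces pombe, out of 1144 genes measured. The genes were chosen by symbol in the RefSeq annotation of assembly ASM294v3. Symbols starting with mrp, mrx, rsm or img gave 20 mitoribosome genes. Symbols starting with cox, qcr, atp, cyc, cyt, coq or sdh gave 18 respiratory chain genes, and those starting with tim or tom gave 7 import genes. tuf1, the mitochondrial translation elongation factor EF-Tu, was added as a single gene. The symbols were checked against the RefSeq products. cox24, placed in the respiratory chain by its symbol, is annotated as the 37S mitochondrial ribosomal protein mS38, and mrx11 and tom6 are annotated only as uncharacterized proteins. The products of sdh8 (protein Sdh8) and sdh7 (ACN9 family) name no role in respiration either.

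The assay was multiplexed primer extension sequencing (MPE-seq), a targeted RNA sequencing method in which gene-specific primers start reverse transcription next to chosen introns. Both libraries, A and B, came from the strain Bioneer WT in log phase, which was started from a single colony in the rich medium YES and kept at 30 °C up to an OD600 of 0.8. There was 1 group, with no mutant, treatment or second condition. The labels do not say that A and B were separate cultures, so their differences may be technical, and every p-value below compares 2 libraries with counting noise alone.

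Mitochondria of fission yeast carry a small genome of their own, and almost all of their proteins are encoded in the nucleus, translated in the cytosol and imported. The mitoribosome, with a 37S small and a 54S large subunit, translates the few messages made inside the organelle, most of which encode core subunits of the respiratory complexes and of ATP synthase. The TOM complex of the outer membrane and the TIM complexes of the inner membrane bring in the nuclear-encoded proteins, helped by small Tim chaperones between the membranes. Fission yeast introns are short, and each is recognised by a 5′ splice site, a branch site and a 3′ splice site.

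For each gene the deposited files give 3 raw counts per library, named exonic, mature and premature. Mature was read as spliced and premature as unspliced, and the unspliced percentage is premature counts as a percentage of mature plus premature counts. Library A held 5796068 exonic, 634306 mature and 53090 premature counts in all, and library B held 10009017, 1194460 and 82204. The 46 genes took 2.57% of the exonic counts in library A and 2.43% in library B, with 16062 and 27406 mature and 1365 and 1938 premature counts. A gene was called measured when its mature and premature counts summed to at least 50 in each library. This held for 41 of the 46 genes and for 864 of all 1144. Values are means ± SD of both libraries (n = 2), and single-library intervals are 95% Wilson intervals, which cover counting error only. The use of molecular identifiers is unknown, so these intervals may be too narrow even for that error.

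The introns at the extremes of the unspliced percentage are printed first, because the results below turn on them. RefSeq places exactly 1 intron in 42 of the 46 genes, and each of the 42 lies within the coding sequence. In each line the capitals mark the first 6 bases (the 5′ splice site), the last 3 bases (the 3′ splice site) and, where one was found, the branch-type motif nearest the 3′ end. The motifs searched, on the intron strand only, were the usual form CTAAC, its variant CTAAT that ends in T, the form CTGAC with G as the third base, and the form with both changes, which reads CTGAT. At least 1 of them was present in 36 of the 42 introns (85.7%) and in 869 of the 1078 single introns of all genes (80.6%). The 3 introns with the lowest unspliced percentages belong to tuf1 (II:1821224-1821274, minus strand, 51 nt), atp4 (II:3919485-3919528, minus strand, 44 nt) and mrpl12 (III:1160545-1160593, plus strand, 49 nt).
tuf1: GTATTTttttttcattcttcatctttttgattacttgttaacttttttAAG
atp4: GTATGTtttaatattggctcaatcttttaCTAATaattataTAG
mrpl12: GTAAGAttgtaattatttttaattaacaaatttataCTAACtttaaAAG
The 3 with the highest belong to mrpl44 (II:4126073-4126145, plus strand, 73 nt), mrpl27 (I:1433154-1433198, minus strand, 45 nt) and cyt2 (I:3039996-3040087, minus strand, 92 nt).
mrpl44: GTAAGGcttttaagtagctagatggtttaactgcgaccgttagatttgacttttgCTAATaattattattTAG
mrpl27: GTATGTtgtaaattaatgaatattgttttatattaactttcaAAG
cyt2: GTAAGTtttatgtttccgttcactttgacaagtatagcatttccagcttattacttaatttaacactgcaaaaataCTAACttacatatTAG
The shortest intron is that of tom6 (I:2583903-2583940, plus strand, 38 nt) and the longest that of cox6 (I:2814517-2814927, plus strand, 411 nt), of which the first 40 and the last 60 nt are shown.
tom6: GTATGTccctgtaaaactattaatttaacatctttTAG
cox6, first 40 nt: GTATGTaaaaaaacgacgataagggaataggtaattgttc
cox6, last 60 nt: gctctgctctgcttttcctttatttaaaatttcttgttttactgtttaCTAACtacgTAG
The 5′ splice site GTATGT occurs on both sides of the contrast, in the atp4 intron and in the mrpl27 intron, and so does the 3′ splice site AAG, in tuf1, mrpl12 and mrpl27. The introns of tuf1, mrpl27 and tom6 hold none of the 4 motifs in these letters. The sequences and coordinates are those of RefSeq ASM294v3. The authors' genome build is not given in the sources used here, and the files do not say which intron a count belongs to, so each value was assigned to the gene's 1 annotated intron.

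Transcripts of the 41 measured genes were mostly spliced. Their median unspliced percentage was 5.90%, with 5.96% in library A and 5.90% in library B, and the quartiles were 1.87% and 10.1%. All 864 measured genes had a median of 7.63%. The order of these medians was not stable: with a minimum of 200 counts per library, 32 of the genes had a median of 4.74% and 409 genes of the whole table had 3.89%. Below 5% lay 18 of the 41 (43.9%), against 37.9% of the other 823 measured genes. At or above 20% lay 4 of the 41 (9.76%), against 26.0% of the others, and these 4 were mrpl44, mrpl27, cyt2 and mrps9.

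The classes differed in their medians. The 18 measured mitoribosome genes had a median of 8.53% (8.62% in library A, 7.48% in library B), the 16 respiratory chain genes 5.72% (4.61% and 5.49%) and the 6 import genes 5.43% (5.76% and 4.52%). The mitoribosome genes were highest in both libraries, while the respiratory and import medians changed places between them. Mitoribosome genes annotated as 37S and as 54S had medians of 6.33% and 6.43%, closer to the other classes. The class median also counts mrpl27 (24.8%) and mrps9 (99.8%), which carry neither annotation. Of the 11 genes with a mean at or above 10%, 9 were mitoribosomal, 1 was respiratory and 1 was an import gene. The 9 include mrps9, which has no annotated intron. They also include mrpl8, mrpl33, rsm10, img2 and rsm24, with means of only 10.1% to 10.3%. Of these, mrpl8, mrpl33 and rsm10 were below 10% in library B and rsm24 in library A. cox24 (9.65%) and sdh6 (9.38%) lay just under the cut, so the split depends on the threshold. Ranges overlapped widely, and each class held genes below 2% as well as above 10%. These class medians are descriptions over genes and carry no test, because genes are not replicates.

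**Figure D1:**
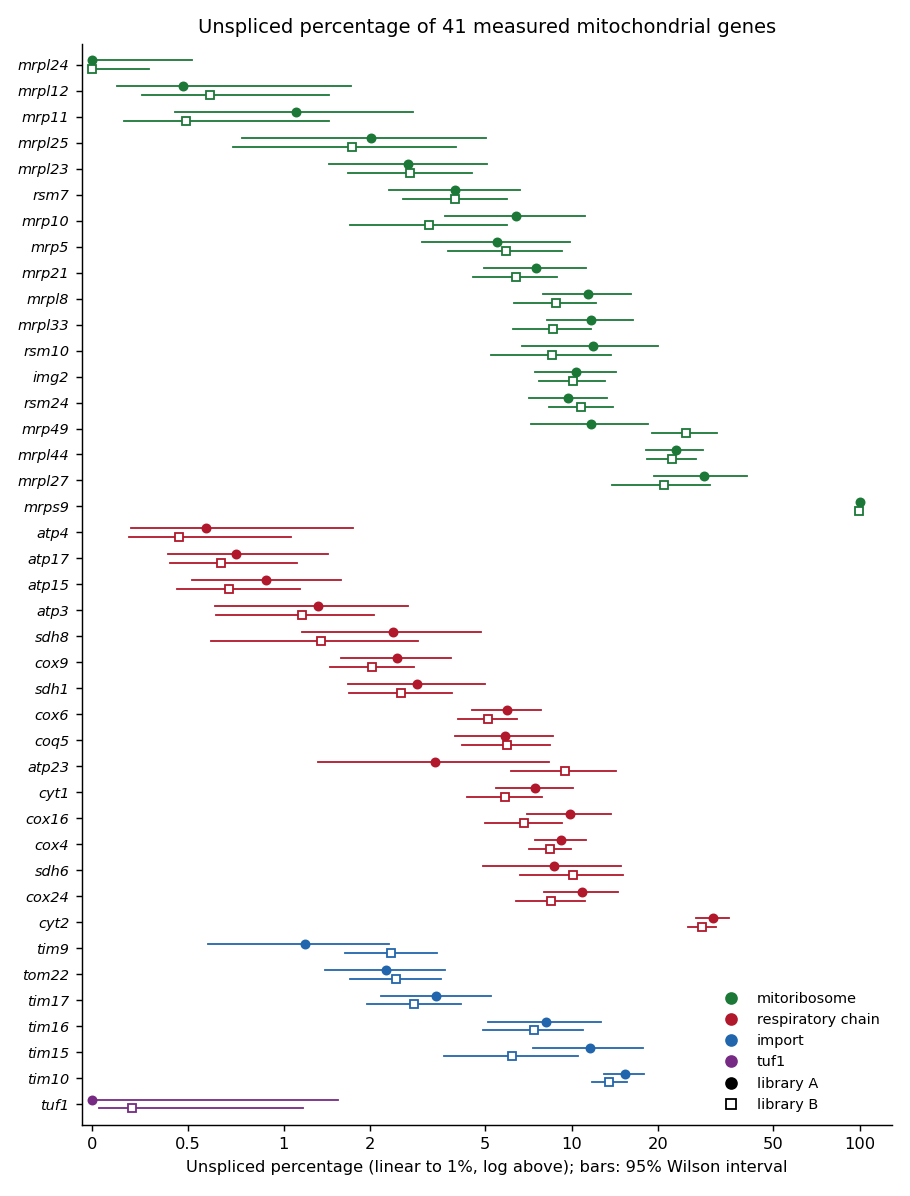
Unspliced percentage (horizontal axis, linear to 1% and logarithmic above) of the 41 measured genes, 1 row per gene, with filled circles for library A, open squares for library B and bars for 95% Wilson intervals. The ATP synthase genes atp4, atp17, atp15 and atp3 sit near 1% in both libraries, and mrps9 sits at or near 100%. The intervals of mrp49 do not overlap, which held for 3.59% of all 864 measured genes.

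In the large 54S subunit, the 10 measured genes so annotated had a median of 6.43% and ran from 0 to 22.7%. mrpl24 (protein bL28m) had 733 mature and 0 premature counts in library A and 1291 and 0 in library B, which allow up to 0.409% and 0.232%. RefSeq gives mrpl24 no intron of at least 20 nt, so what its mature class counts is not known. mrpl12 (bL12m, of the stalk that binds translation factors) had 2 premature and 420 mature counts in library A and 5 and 803 in library B, or 0.546% ± 0.102. mrp11 (uL10m, the base of the same stalk) had 4 and 357 in library A and 3 and 607 in library B, or 0.80% ± 0.436. Both stalk genes thus lay at the low end in both libraries. mrpl25 (mL59) followed at 1.87% ± 0.202 and mrpl23 (uL13m) at 2.73% ± 0.0329.

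The means of the other 54S genes lay at about 10% or higher, with none between 5% and 10%. In library B alone, mrpl8 (8.79%) and mrpl33 (8.59%) lay within that gap. mrpl8 (bL17m) stood at 10.1% ± 1.87, mrpl33 (uL30m) at 10.1% ± 2.17 and img2 (mL49) at 10.2% ± 0.209. mrp49 (mL61) had 15 premature and 113 mature counts in library A (11.7%) and 42 and 126 in library B (25%), a mean of 18.4% ± 9.39. Its Wilson intervals, 7.23% to 18.4% and 19.1% to 32.1%, did not overlap. This held for 1 of the 41 genes (2.44%) and for 31 of all 864 measured genes (3.59%). mrpl44 (mL53) had 57 and 191 in library A (23.0%) and 80 and 278 in library B (22.3%), or 22.7% ± 0.451. The mrpl44 value was thus nearly the same in both libraries, while that of mrp49 spanned a wider range than any other measured gene among the 41.

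The small 37S subunit covered a narrower range, from 3.94% to 10.3% with a median of 6.33% over its 6 mitoribosome-class genes. rsm7 (uS7m) was lowest, with 13 premature and 317 mature counts in library A, 21 and 512 in library B, and 3.94% in each. mrp10 (mS37) had 6.43% in library A and 3.20% in library B, mrp5 (uS5m) 5.52% and 5.90%, and mrp21 (bS21m) 7.5% and 6.39%. rsm10 (uS10m) had 11.8% and 8.57%, and rsm24 (mS35) 9.75% and 10.8%. None of the 6 was above 12% or below 3% in either library. cox24, the 37S protein filed by its symbol with the respiratory genes, had 39 premature and 321 mature counts in library A (10.8%) and 45 and 486 in library B (8.47%), within the same range.

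Both measured genes annotated with no systematic protein name were high. mrpl27 had 19 premature and 47 mature counts in library A (28.8%) and 19 and 72 in library B (20.9%), the smallest sums among the measured genes of the 46, for a mean of 24.8% ± 5.59. mrps9 (subunit Mrps9) had 368 premature and 0 mature counts in library A and 515 and 2 in library B, or 99.8% ± 0.274. The annotated exons of mrps9 leave no intron of at least 20 nt, and the gene overlaps another protein-coding gene. What its premature class counts is therefore not known, and its value is not an unspliced percentage of an annotated intron. mrps9 and mrpl24 are the highest and the lowest of the 18 measured mitoribosome genes. Leaving out both, which keeps the 16 with 1 intron, therefore could not move the median of 8.53%. Without mrps9 alone the median fell on mrp21, at 6.95%.

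tuf1 had the lowest value of any measured gene with an annotated intron among the 46. It had 0 premature and 245 mature counts in library A, which allow up to 1.22%, and 1 and 479 in library B, or 0.208%. With 1 premature count in all, its place below atp4 and mrpl12 was not resolved at this depth.

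Respiratory genes differed in their medians by role. The 9 genes whose products are subunits of complexes II to V had a median of 2.25% (2.47% in library A, 2.03% in library B) and a maximum of 8.8%. The 7 other measured genes (atp23, coq5, cox16, cox24, cyt2, sdh6 and sdh8), whose products are not annotated as such subunits, had a median of 8.35% (8.66% and 8.47%) and a maximum of 29.7%. The 4 ATP synthase genes among the subunits had a median of 0.763%. The remaining subunits ran from 2.25% to 8.8%, within the range of the other genes. The ranges overlapped, since cyt1 and cox4 among the subunits lay above sdh8, coq5 and atp23 among the others. This grouping was made from the RefSeq products and carries no test.

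ATP synthase made up the low end. atp4, a stator subunit of the membrane part, had 3 premature and 501 mature counts in library A and 5 and 1097 in library B, or 0.524% ± 0.10. atp17 (subunit F) had 9 and 1187, then 15 and 2211, or 0.713% ± 0.0556. atp15 (the epsilon subunit) had 12 and 1307, then 17 and 2364, or 0.812% ± 0.138. atp3, the gamma subunit that turns inside the catalytic head, stood at 1.24% ± 0.113. All 4 values lay below 1.4% in each library, and all 4 were higher in library A, as were 60.8% of all 864 measured genes. Their introns, of 44 to 79 nt, each held a motif from the searched set and ended in TAG.

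Subunits of the electron transport complexes were higher. cox9 (cytochrome c oxidase subunit VIIa) had 2.47% in library A and 2.03% in library B. sdh1, the catalytic subunit of succinate dehydrogenase, had 2.91% and 2.55%. cox6 (subunit VI), with the 411 nt intron, had 47 premature and 742 mature counts in library A and 67 and 1243 in library B, or 5.54% ± 0.596. The longest intron among these genes therefore had a value close to the median of the 41. cyt1 (cytochrome c1 of complex III) had 7.44% and 5.87%, and cox4 (subunit IV), with an intron of 355 nt, 9.18% and 8.42%. All 9 subunit genes were higher in library A, as were 60.8% of all 864 measured genes. None of the 9 passed the test between the libraries given below.

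Among assembly factors and enzymes, cyt2 was highest. Its product is the heme lyase that attaches heme to cytochrome c1. It had 144 premature and 321 mature counts in library A (31.0%, interval 26.9% to 35.3%) and 213 and 538 in library B (28.4%, interval 25.3% to 31.7%). Its substrate gene cyt1 had a mean of 6.65% ± 1.12, below cyt2 in both libraries. sdh8, named in Saccharomyces cerevisiae for a succinate dehydrogenase assembly factor, was lowest in this set at 1.87% ± 0.734. coq5, a C-methyltransferase of ubiquinone synthesis, had 5.85% and 5.94%. sdh6, succinate dehydrogenase assembly factor 1, had 11 premature and 116 mature counts in library A (8.66%) and 20 and 178 in library B (10.1%). cox16, a cytochrome c oxidase assembly protein, had 9.87% and 6.84%, so the libraries were ordered differently in these 2 genes. atp23, a peptidase that in Saccharomyces cerevisiae matures an ATP synthase subunit, had 4 premature and 115 mature counts in library A (3.36%) and 19 and 182 in library B (9.45%).

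Import genes spread from low to moderate values. tim9, a small Tim chaperone, had 8 premature and 665 mature counts in library A (1.19%) and 27 and 1115 in library B (2.36%), or 1.78% ± 0.831. Its partner tim10 was the highest import gene, with 126 and 699 in library A (15.3%) and 165 and 1054 in library B (13.5%), or 14.4% ± 1.23. The products of both genes form 1 complex, yet the lowest and the highest import values belong to them, and their values did not overlap between genes in either library. The tim9 intron is 234 nt and the tim10 intron 348 nt, the longest among the import genes.

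Of the outer membrane receptor complex, tom22 had 16 premature and 692 mature counts in library A and 28 and 1115 in library B, or 2.35% ± 0.134. In the TIM23 translocase of the inner membrane, the channel subunit tim17 had 19 and 542 in library A (3.39%) and 26 and 892 in library B (2.83%). tim16, of its import motor, had 17 and 192 (8.13%), then 22 and 276 (7.38%). tim17 and tim16 thus kept their order in both libraries. tim15 had 17 and 130 (11.6%), then 12 and 181 (6.22%), or 8.89% ± 3.78. Its sums, 147 and 193, were the fewest of the measured import genes, and its Wilson intervals overlapped.

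In 5 of the 46 genes the sum of mature and premature counts was under the minimum. tom6, whose symbol follows a small TOM subunit of Saccharomyces cerevisiae, had 2 mature counts in library A and 9 in library B, no premature count, and 2110 and 3986 exonic counts. mrpl35 had 2 and 0 mature counts, no premature count, and 3009 and 4562 exonic counts, and RefSeq gives it no intron. mrx11 had 8 and 10 premature counts, no mature count, and 294 and 405 exonic counts, also without an annotated intron. atp12, a chaperone for ATP synthase assembly, and sdh7, of the ACN9 family, had no mature or premature count in either library, with 210 and 281 and with 462 and 691 exonic counts. All 5 were thus seen in the exonic class but gave no usable splicing value. The introns of atp12 and sdh7 overlap another protein-coding gene in RefSeq.

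A two-sided Fisher exact test compared mature with premature counts between the libraries for every measured gene, with Benjamini-Hochberg adjustment over all 864. None of the 41 genes passed at an adjusted p of 0.05, while 14 of all 864 did (1.62%). Before adjustment, 2 of the 41, both higher in library B, and 89 of the 864 (10.3%) had a Fisher exact p below 0.05. They were mrp49, with a Fisher exact p of 0.00455 (adjusted p = 0.151), and atp23, with a Fisher exact p of 0.0451 (adjusted p = 0.466). The direction leaned to library A in general: 28 of the 41 were higher in A and 12 in B, a share of 68.3% against 60.4% of the other measured genes. The SD between libraries had a median of 0.531 percentage points over the 41 genes and 1.04 over the others. Spearman's rho between the libraries was 0.94 across the 41 genes, a description of how far the order of genes was kept.

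Exonic counts gave the abundance of the transcripts as this assay sees it. They were scaled to the exonic total of the library (CPM, counts per 1000000) and, for levels between genes, divided by the annotated mRNA length in kb. Primers set the yield of each gene too, and how the exonic class was counted is not given in the sources used here. Per kb, the median level was 939 CPM for the 7 import genes, 774 for the 18 respiratory genes, 656 for tuf1 and 351 for the 20 mitoribosome genes, against 228 for the other genes. Without division by length the order was respiratory (505 CPM), import (430) and mitoribosome (336), against 392 for the other genes. Import and respiratory genes thus changed places. The mitoribosome stayed lowest of the 3 classes and now lay below the other genes.

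Within the respiratory genes, the subunits had a median of 1128 CPM per kb and the other genes 242. sdh1 had the highest exonic count of the 46, with 14490 in library A and 26486 in library B, or 2573 CPM ± 103 and 1248 CPM per kb. cyt1 came next, at 9881 and 15758 counts and 1640 CPM ± 92.2, or 1152 per kb. atp12 was lowest, at 32.2 CPM ± 5.77, and sdh7 followed at 74.4 CPM ± 7.55. Lowest among measured respiratory genes were sdh8, at 192 CPM ± 12.2, and atp23, at 241 CPM ± 19.3. All 4 lay below every subunit in both libraries.

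Mitoribosome levels ran from 45.6 CPM (mrx11) to 902 CPM ± 81.7 (mrpl12). mrpl24 stood at 878 CPM ± 79.2, while rsm10 and mrpl27 had 61.6 CPM ± 11.7 and 62.1 CPM ± 14.6. Per kb, rsm10 was lowest at 23.8 CPM, on an annotated mRNA of 2587 nt, and mrp11 was highest at 573 CPM. Genes whose products sit in 1 particle therefore differed widely in these counts. Among import genes, tom22 was highest at 964 CPM ± 40.5, followed by tim17 at 849 CPM ± 54.1. tim15 was lowest at 135 CPM ± 17.4, and tim16 came next at 370.1 CPM ± 20.8. tim9 (529 CPM ± 8.79, 947 per kb) and tim10 (430 CPM ± 42.8, 1003 per kb) were close per kb despite their different unspliced percentages.

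**Figure D2:**
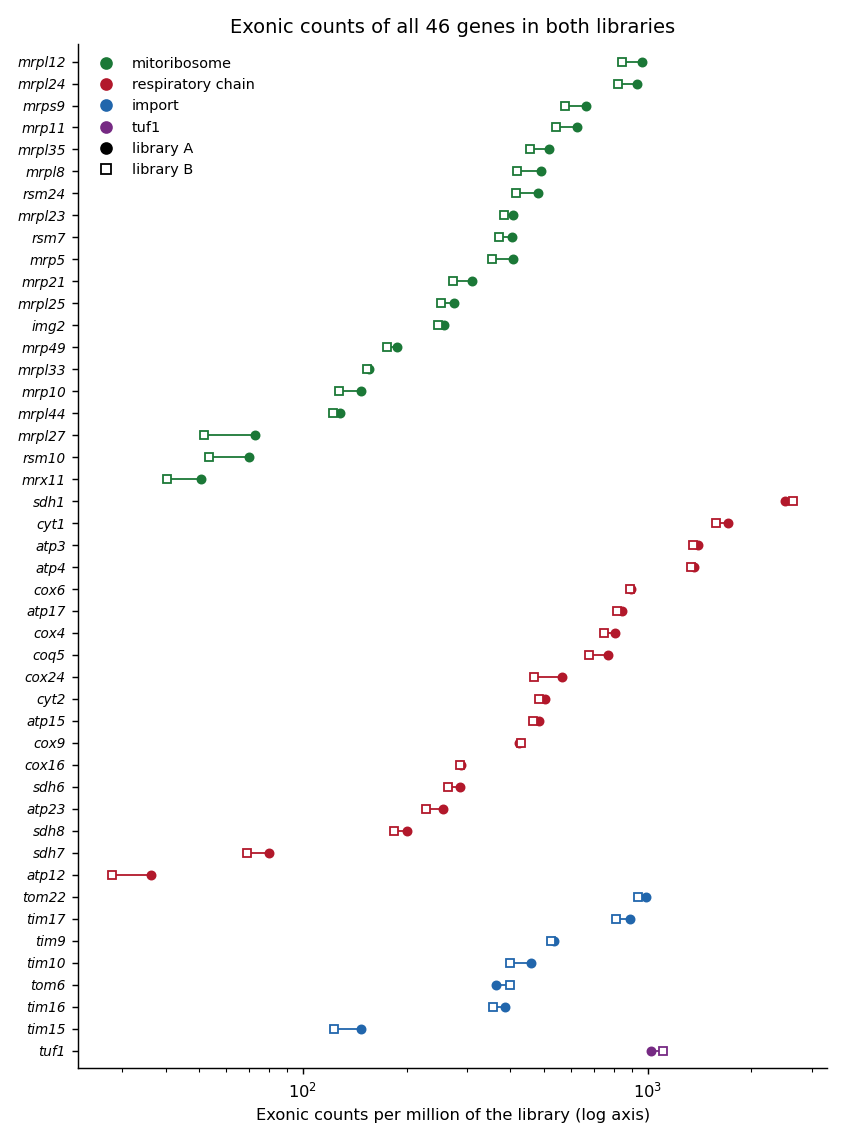
Exonic CPM of each library (horizontal logarithmic axis) of all 46 genes, sorted by level within each class, with filled circles for library A and open squares for library B joined by a line. The respiratory genes span the widest range, from atp12 to sdh1, and the library A value lies to the right for most genes.

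Genes with more exonic counts had lower unspliced percentages. Across the 39 measured genes with exactly 1 intron, Spearman's rho between exonic CPM and the unspliced percentage was -0.56 (-0.57 in library A, -0.55 in library B). Across the other 799 such genes it was -0.51. The points share the libraries and their depth, and genes are not independent replicates.

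**Figure D3:**
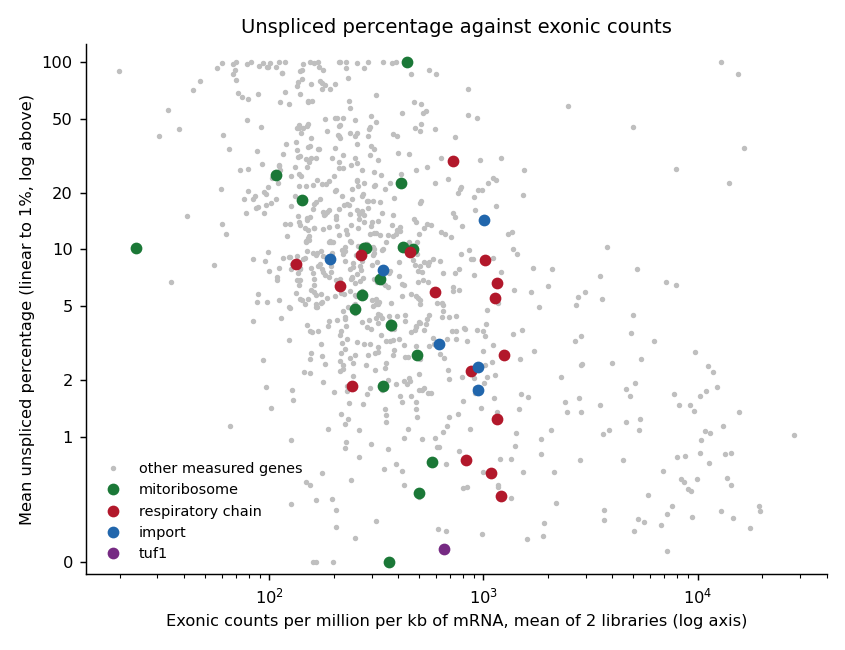
Mean unspliced percentage (vertical axis, linear to 1% and logarithmic above) against mean exonic CPM per kb of mRNA (horizontal logarithmic axis), with 1 point per measured gene, coloured by class and grey for all other genes. The respiratory subunits lie to the right, at 826 CPM per kb or more, the mitoribosome genes lie to their left, at 573 or less, and mrps9 lies at the top.

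Intron features varied within the set. The 42 introns had a median length of 72.5 nt, against 67 nt in the other genes with 1 intron, and a median of 133.5 coding nt lay before them, against 130. GTATGT was the most frequent 5′ splice site, in 17 of 42 (40.5%), against 23.3% of the other single introns. GTAAGT stood in 11 (26.2%), against 35.7% of the others, and the 3′ end TAG in 34 (81.0%), against 77.1%. Among measured genes, the 15 with GTATGT had a median unspliced percentage of 5.54% and the 11 with GTAAGT one of 8.89%, and both groups ran from below 1% to above 20%. The 21 with CTAAC as the motif nearest the 3′ end had a median of 7.76%, the 8 with CTAAT 3.52%, and the 5 with no match 1.78%. The search set no limit on the distance from the motif to the 3′ end. That distance had a median of 12.5 nt but was 42 nt in tom22, 63 nt in mrpl25 and 103 nt in cox16. Motifs were matched by letters alone, so no match does not show that a branch site is absent.

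Length and base composition were set beside splicing. The 11 measured introns under 60 nt had a median of 2.73%, the 17 of 60 to 100 nt 6.65% and the 11 over 100 nt 5.90%, while in the other genes the medians were 5.24%, 7.14% and 11.1%. Spearman's rho with intron length was 0.27 across the 39 genes and 0.20 across the other 799. With the G+C content of the intron it was 0.50 (0.47 in library A, 0.55 in library B), against 0.28 in the others. The lowest G+C among the 39, 14.3% in mrpl12, went with 0.546% unspliced, while mrpl27, at 17.8% G+C, had 24.8%. The difference between these correlations and those of the other genes was not tested, and the points share libraries and depth.

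**Figure D4:**
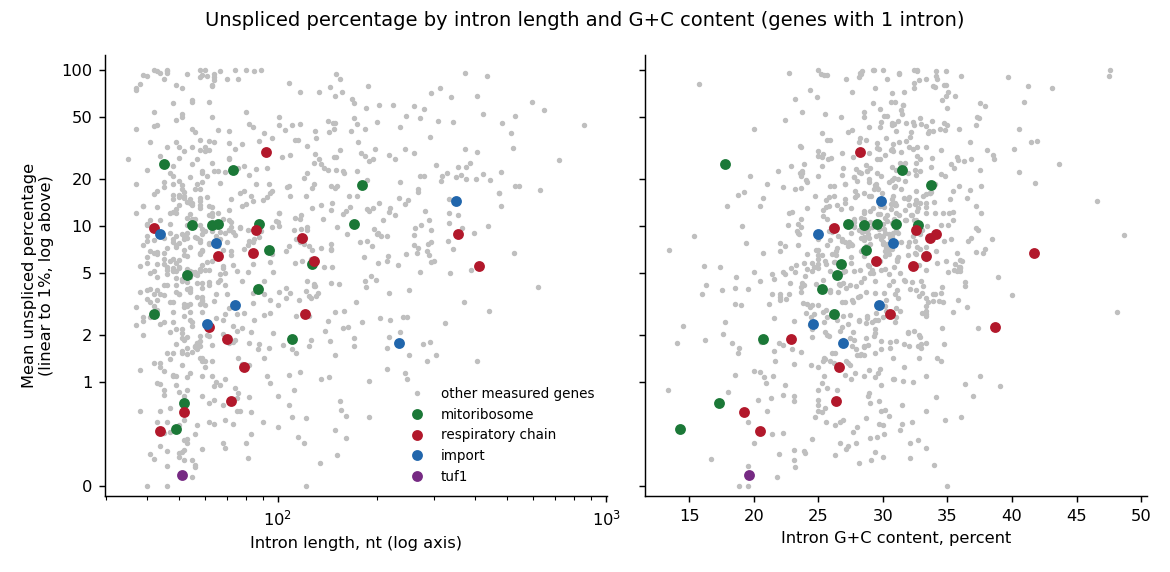
Mean unspliced percentage (vertical axes, linear to 1% and logarithmic above) against intron length in nt (left panel, logarithmic axis) and intron G+C content in percent (right panel), with 1 point per measured gene with exactly 1 intron, coloured by class and grey for all other genes. The coloured points scatter across all lengths, and those below 20% G+C lie under 1% unspliced except mrpl27.

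Exonic counts were compared between the libraries by a two-sided exact binomial test against the share of library B in the exonic total, with Benjamini-Hochberg adjustment over 1093 genes, those whose exonic count reached 50 in both libraries. Of the 46 genes, 31 were called lower in library B, where the whole table had 64% so called, and 3 were called higher, where it had 8.78%. The 46 genes were thus called in about the shares of the whole table. The median gene of the whole table shifted by -0.13 (log2 of B over A), and the 46 genes had the same median, -0.13. Values are therefore read against that shift. The medians were -0.19 for mitoribosome, -0.08 for respiratory and -0.11 for import genes. Below the median of all genes lay 13 of 20 mitoribosome, 6 of 18 respiratory and 3 of 7 import genes. Of the 9 respiratory subunits none lay below it, and 6 of the other 9 respiratory genes did.

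The 3 genes called higher in library B were sdh1, tom6 and tuf1. sdh1 had a log2 ratio of 0.08 (exact binomial test, adjusted p = 1.36e-07), tom6 of 0.13 (adjusted p = 0.00159, same test) and tuf1 of 0.12 (adjusted p = 8.4e-07, same test). The lowest ratios were those of mrpl27 (-0.49), rsm10 (-0.39), atp12 (-0.37) and mrx11 (-0.33), all genes with under 550 exonic counts in each library. With DESeq2 size factors, which centre the median gene near 0, 10 of the 46 were called higher in library B, where the whole table had 23.2%, and 5 lower, where it had 13.6%. The 10 included 6 of the 9 respiratory subunits (atp3, atp4, atp17, cox6, cox9 and sdh1) and no mitoribosome gene. Of the 5 lower genes, 4 were mitoribosomal (mrpl8, mrpl27, mrps9 and rsm10) and the other was cox24. When DESeq2 size factors were combined with a spread between the libraries estimated over all genes, sdh1 and tuf1 were the 2 of the 46 called, both higher in library B, where the whole table had 9.88% so called.

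**Figure D5:**
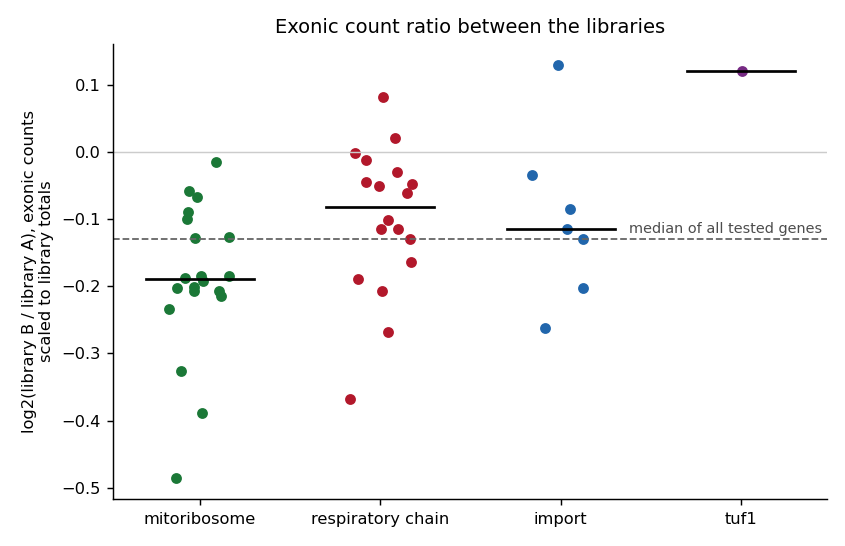
Log2 ratio of exonic counts, library B over library A, scaled to library totals (vertical axis), with 1 point per gene, black bars at the class medians and a dashed line at the median of all tested genes. The mitoribosome median of -0.19 lies below the dashed line at -0.13, and the respiratory median of -0.08 above it.

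The sum of mature and premature counts was also set against the exonic count as a percentage. This is a ratio and not a share, because the exonic class does not contain the mature one: in 6 of the 1144 genes the exonic count was below the mature count in at least 1 library. Its median was 12.1% over the 46 genes and 5.98% over the others, and it ran from 0 in atp12 and sdh7 to 49.0% ± 2.76 in atp15. sdh1, with the highest exonic count, had 3.05% ± 0.293. Annotated mRNAs of the 46 genes were shorter, with a median of 1024 nt against 1546 nt, and the ratio was lower in longer mRNAs in both sets (Spearman's rho -0.50 across the 46, -0.77 across 1046 other genes). mrpl44 (303 nt, 31.3% ± 2.92) and tim10 (429 nt, 30.7% ± 0.327) followed that order, while rsm10, with the longest mRNA of the 46 (2587 nt), had 27.9% ± 6.94 and cox16 (2145 nt) had 18.6% ± 0.417.

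Reads of a gene and of a partner on the other strand cannot be told apart here, since the strand setting of the counting is not given in the sources used here. In 22 of the 46 genes the intron, or the gene where it has none, overlaps another RefSeq gene. In 5 of them (mrpl24, mrps9, mrpl35, atp12 and sdh7) the partner is protein-coding, and in 19 at least 1 partner is another type of gene, mostly a noncoding RNA. Of the extreme introns printed above, those of mrpl27 and tuf1 overlap a noncoding RNA, while those of atp4, mrpl12, mrpl44 and cyt2 overlap no annotated gene.

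A list of 102 symbols of other mitochondrial genes was set beside the 46. Of these symbols 24 were in the files, and 21 of the 24 genes reached the minimum in both libraries. Their median unspliced percentage was 12.1%, from 0.495% ± 0.131 (shy1, cytochrome c oxidase assembly) to 86.6% ± 1.66 (etp1, a monooxygenase-ferredoxin fusion protein). Of the tricarboxylic acid cycle enzymes, 3 stood between 17.0% and 21.4%: aconitase aco1 had 18.3% in library A and 15.8% in library B, fumarase fum1 19.7% and 16.5%, and malate dehydrogenase mdh1 25.5% and 17.4%. These 3 were above each of the 9 respiratory subunits in both libraries. Among other import components, mia40, annotated as a thiol oxidase subunit of the disulfide relay system, had 0.311% and 1.25%. sam50, of the sorting and assembly machinery, had 6.96% and 3.09%. mdm35, whose RefSeq product (protein Mdm35) names no role in import, had 31.8% and 29.7%. No gene of the list passed the Fisher exact test between libraries after adjustment, where 1.62% of all measured genes did. By the exact binomial test on exonic counts, 15 of the 24 were called lower in library B and 0 higher, where the whole table had 64% and 8.78%, so the lower calls were near the share of the table.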

How the data were processed

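The authors deposited 1 table of raw counts per library, with exonic, mature and premature counts as whole numbers for each gene, per the file headers. Trimmomatic 0.35, HISAT2 2.1.0 and HTSeq appear in the submitters' processing notes, without their roles. Not given in the sources used here are the class definitions, genome build, strand setting and use of molecular identifiers. Genes were matched by systematic ID to RefSeq ASM294v3 (1141 of 1144, with 3 unmatched), and an intron had to span at least 20 nt. Both libraries form 1 group. From the deposited counts the unspliced percentage, exonic CPM and 95% Wilson intervals were computed, and for a count of 0 the limit corresponds to 3 counts. Fisher exact and exact binomial tests were adjusted by Benjamini-Hochberg over all genes tested, at 0.05, with at least 50 counts in each library. They were also run on simulated counts with known changes planted in some genes, in which the only noise was counting noise. The spread between the 2 libraries was wider than counting noise. By a median-based estimate the variance was 6.85 times that of counting noise for exonic counts with DESeq2 size factors. For mature against premature counts it was 1.56 times. The simulation therefore does not show how the tests behave here. With 2 libraries of 1 group there is no spread for edgeR's or DESeq2's own tests, so edgeR 4.0.16 and DESeq2 1.42.0 (R 4.3.3) gave scaling factors only. Python 3.11.15, scipy 1.17.1, numpy 2.4.6, pandas 2.3.3 and matplotlib 3.10.9 were used.

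The members, the list of other mitochondrial genes and the tests were chosen with earlier results of these data known. An item of that list is not reported here. The genes given in full include, per class, the 3 lowest and 3 highest unspliced percentages and the 2 highest and 2 lowest exonic counts, with tuf1, genes without an annotated intron and genes under the minimum. The respiratory subunits were separated from other products by their RefSeq annotation. Alternatives were other count minimums, scalings, noise models and each library alone.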

Additional observations from a re-analysis of the deposited data

How the results depend on the processing

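The count of genes differing in unspliced percentage between libraries was 14 of all genes at each count minimum tried (20, 50 and 200), 8 with the noise scaled to the spread between libraries, and 89 without adjustment, of which 0, 0 and 2 were among the 46. For exonic counts, the 795 calls over all genes became 403 with DESeq2 size factors, 410 with TMM factors, 29 with scaled noise on library totals and 108 with scaled noise on DESeq2 factors, an alternative chosen after seeing the data. The calls among the 46 genes became 15, 17, 0 and 2 in the same order. The median log2 ratio of the 46 changed sign, to 0.0021, with DESeq2 factors under either noise model, and the median of all genes moved with it. The median unspliced percentage of the measured genes was 4.74% at a minimum of 200 and 5.90% to 5.96% in single libraries. By class, single libraries gave 7.48% to 8.62% for mitoribosome, 4.61% to 5.49% for respiratory and 4.52% to 5.76% for import genes. A minimum of 200 gave 4.13% for respiratory and 3.11% for import genes, and leaving out products that are no subunits gave 2.25% for the respiratory class. Per kb of mRNA the exonic medians were 774 for respiratory and 939 for import genes. Depth limits the lowest values most, since tuf1, mrpl24, atp4, mrpl12, mrp11, mrpl25 and sdh8 rest on under 10 premature counts in each library, and 2 libraries cannot separate technical from biological spread.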
